A study of Mus musculus with 4 samples.

Results

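The motile cilium axoneme is described here through 64 genes, chosen by name and level from 55421 gene identifiers. A gene was taken when its mouse symbol began with Dnah, Dnaic, Dnai, Dnal, Cfap, Rsph, Drc or Tekt followed by a digit, and when its normalised read count reached at least 10 in at least 2 of 4 libraries. Of 67 symbols of this form, 3 stayed under that level. Bulk RNA sequencing was done on YFP-positive cells sorted from the micro-dissected adult mouse subventricular zone, with 2 WT and 2 Opa1 KO libraries. All mice were on a C57/BL/6 background and carried Nestin-CreERT2, a tamoxifen-inducible Cre, with the Rosa26-YFP reporter, and both groups were given tamoxifen as young adults. Opa1 KO mice also carried floxed Opa1 on both alleles, whereas the WT mice did not. The sort keeps every cell in which Nestin-CreERT2 recombined the reporter together with its YFP-positive progeny, so the libraries can hold cells other than stem cells. The labels number the libraries 1 and 2 within each genotype. They tie the number to no batch or day, nor to single animals, and the p-values below therefore measure only the spread between these samples.

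The axoneme is the microtubule core of the cilium. In a motile cilium, outer and inner dynein arms on the doublet microtubules slide neighbouring doublets against each other, radial spokes and the central apparatus regulate the arms, and the nexin-dynein regulatory complex links the doublets. Tektins and other proteins inside the doublets stabilise them. In the adult ventricular wall, motile cilia in tufts belong to the ependymal cells that line the ventricle beside the stem cells, and the stem cells carry a single primary cilium.

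The recovered library totals lay between 19985853 and 23237326 reads. The targeted gene, Opa1, had normalised read counts of 3039 and 2833 in WT replicates 1 and 2 and of 837 and 739 in Opa1 KO replicates 1 and 2. This difference of -1.90 on the log2 scale (SE 0.13) had an adjusted p of 0.998 by limma-trend and of 2.08e-25 by DESeq2 on recovered reads. Markers of quiescent stem cells and astrocytes (10 of 10 tested, summed level 175744 to 277734) and of neuroblasts (10 of 10, 90094 to 139102) were high in all 4 libraries. Markers of other cells were also detected, at summed levels of 10536 to 64625 for ependymal cells and 23851 to 61377 for oligodendrocytes. Those of pericytes (2741 to 6961), endothelial cells (1560 to 5286) and microglia (226 to 1928) were lower. The lists differ in their number of genes, so the sums do not measure cell shares.

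The axonemal genes differed far more between the replicate numbers than between the genotypes. Their summed normalised read count was 23447 in WT replicate 1 and 104360 in WT replicate 2, and 32901 in Opa1 KO replicate 1 and 96231 in Opa1 KO replicate 2. Number 2 was therefore 4.45 times number 1 in WT and 2.92 times number 1 in Opa1 KO. The KO to WT ratio of the sums was 1.40 within number 1 and 0.922 within number 2. As a share of each library, the axonemal genes took 0.104% of WT replicate 1 (Wilson 95% interval 0.103 to 0.106) and 0.470% of WT replicate 2 (0.467 to 0.473). The corresponding shares were 0.151% in Opa1 KO replicate 1 (0.150 to 0.153) and 0.451% in Opa1 KO replicate 2 (0.448 to 0.454). These intervals do not overlap, but they cover counting error only, since reads amplified without molecular identifiers are not independent molecules. In bulk libraries, fewer cells of a type and less RNA per cell cannot be told apart.

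**Figure D1:**
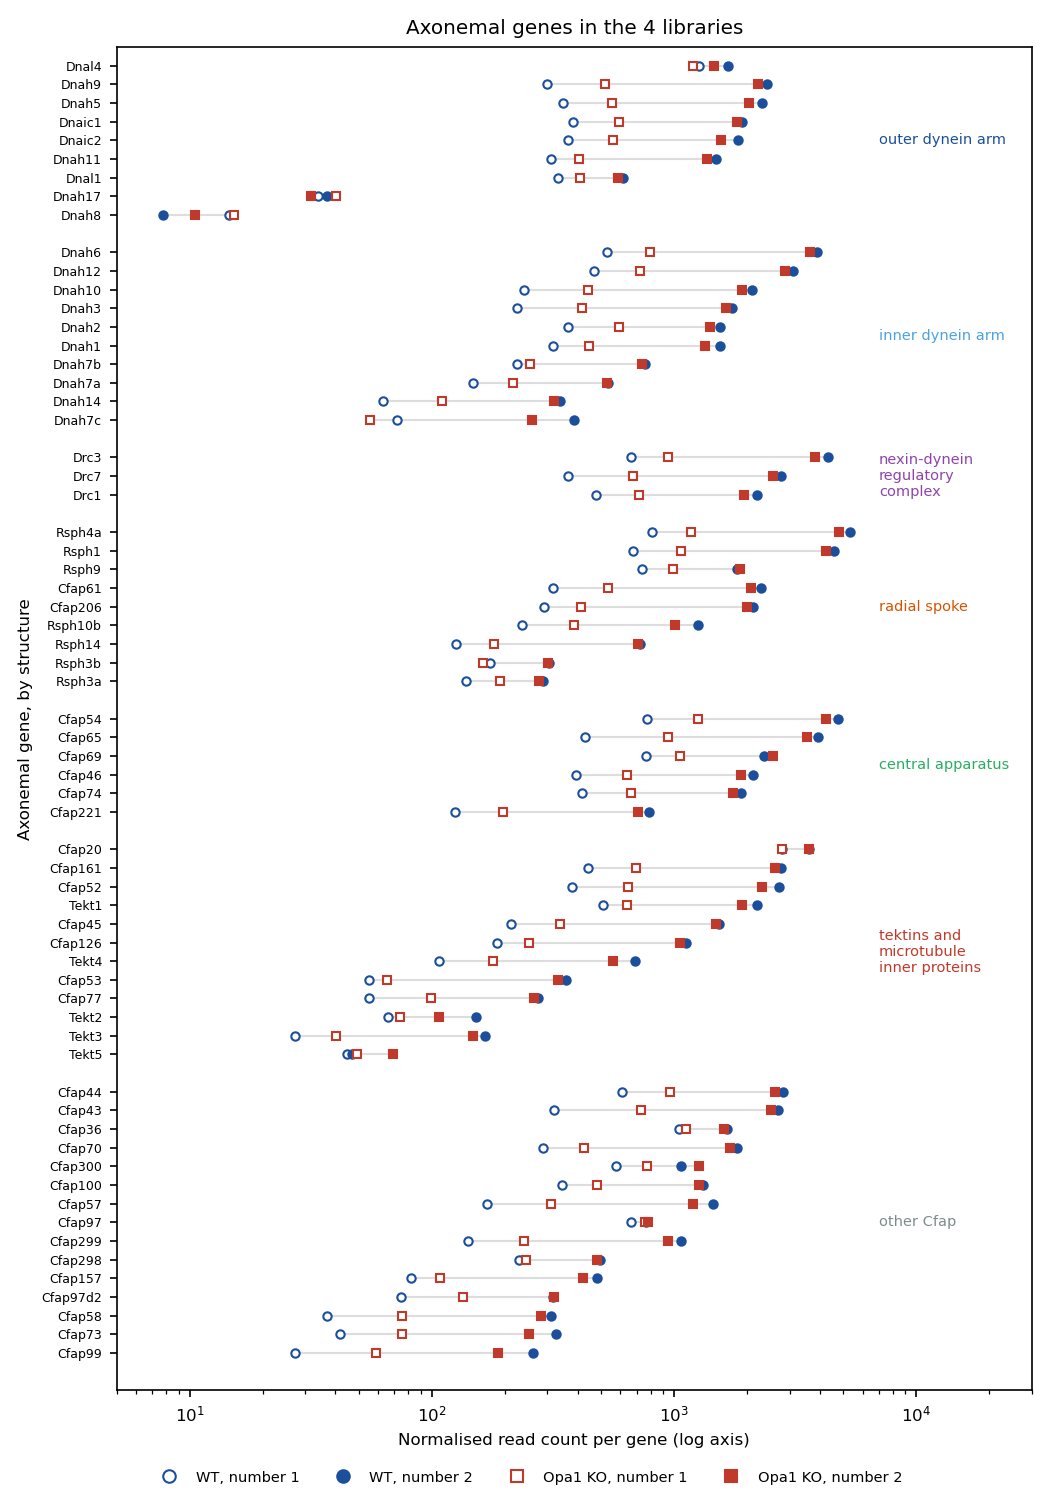
Normalised read count of each of the 64 axonemal genes on a log axis, grouped by axonemal structure, with 1 point per library (circles WT, squares Opa1 KO, open number 1, filled number 2) and a grey line from the lowest to the highest library. For 61 genes both filled points lie to the right of both open points, and Dnah17, Dnah8 and Tekt5 are the exceptions.

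Taking log2(value + 1) and averaging over genotypes, the difference of number 2 minus number 1 had a median of 2.08 over the 64 axonemal genes, from -0.66 for Dnah8 to 2.61 for Dnah10. The median over all 18547 genes past the same level was -0.03. Both libraries numbered 2 lay above both libraries numbered 1 for 61 of the 64 genes, against 26.4% of all genes. The reverse held for 1 gene, Dnah8, against 27.3% of all genes. A difference of at least 1 was seen for 52 axonemal genes, against 9.49% of all genes. The median ratio of number 2 to number 1 was 5.37 in WT and 3.16 in Opa1 KO. Across the 64 genes the log2 differences of the WT pair and of the KO pair followed each other (Pearson r = 0.945). Over all 18547 genes the same correlation was 0.718. Both are taken across genes that share their libraries and are not independent replicates.

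The genotype difference was small beside it. Opa1 KO minus WT had a median of 0.24 on the log2(value + 1) scale, with 59 genes above 0 and 5 below, where 49.0% of all genes were above 0 and the median of all genes was -0.01. The replicate-number difference exceeded the genotype difference in size for 63 of 64 axonemal genes and for 61.6% of all genes. No axonemal gene was called by limma-trend with Benjamini-Hochberg adjustment over all genes, and none of the 18547 genes was (0%). At an unadjusted p under 0.05 limma-trend gave 666 genes and 0 axonemal genes, whose adjusted p lay between 0.998 and 0.999. DESeq2 called 59 genes (0.318%) and edgeR 0 (0%, with 700 genes at an unadjusted p under 0.05), with 0 axonemal genes in either at an adjusted or an unadjusted p under 0.05. The median standard error of the genotype difference was 1.10 for the axonemal genes and 0.24 over all genes, in a fit that leaves the replicate-number difference in the residual. The edgeR and DESeq2 fits put the median of the axonemal genes at 0.03 and 0.02.

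**Figure D2:**
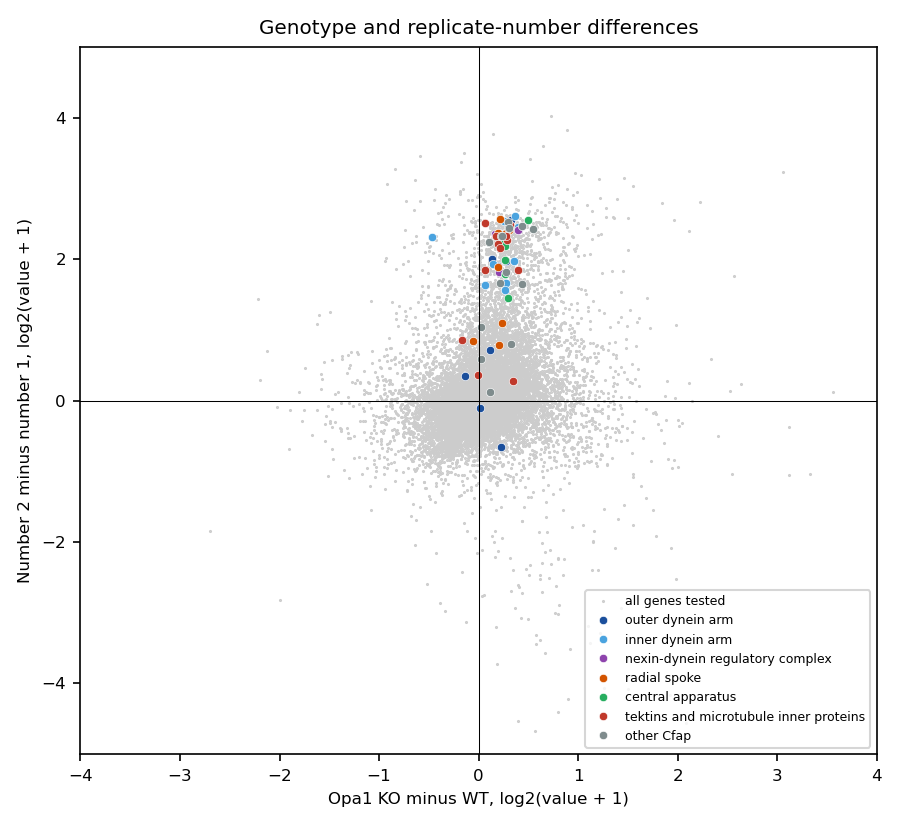
Opa1 KO minus WT (horizontal axis) against number 2 minus number 1 (vertical axis), both as differences of log2(value + 1), for all genes tested (grey, 3 lie outside the axes) and the axonemal genes coloured by structure. Most axonemal genes form a column near 2 on the vertical axis and just right of 0 on the horizontal axis.

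The sign of the genotype difference depended on the pair of libraries. Within number 1, Opa1 KO was above WT for 60 of 64 axonemal genes, against 51.3% of all genes, with a median difference of 0.59. Within number 2, Opa1 KO was below WT for 57 of 64, against 55.1% of all genes, with a median difference of -0.11. In 53 genes Opa1 KO was higher in the first pair and lower in the second, a pattern of 22.0% of all genes. WT replicate 1 was the lowest library for 58 axonemal genes and WT replicate 2 the highest for 56, so that for 52 genes both KO values lay between the WT values. The shares of all genes with these orders of libraries were not computed. Opa1 KO was higher in both pairs for 7 genes (Cfap300, Cfap69, Cfap97, Cfap97d2, Dnah8, Rsph9 and Tekt5, against 29.3% of all genes) and lower in both for 4 (Cfap20, Dnah7c, Dnal4 and Rsph3b, against 33.1%). Only Tekt5 had both KO libraries above both WT libraries (15.2% of all genes), and 0 genes had both below (15.7%). Leaving out WT replicate 1 turned the median genotype difference to -1.0, and leaving out Opa1 KO replicate 2 turned it to -0.55. Leaving out the other library of either genotype gave 1.47 (WT replicate 2 dropped) and 1.08 (Opa1 KO replicate 1 dropped).

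**Figure D3:**
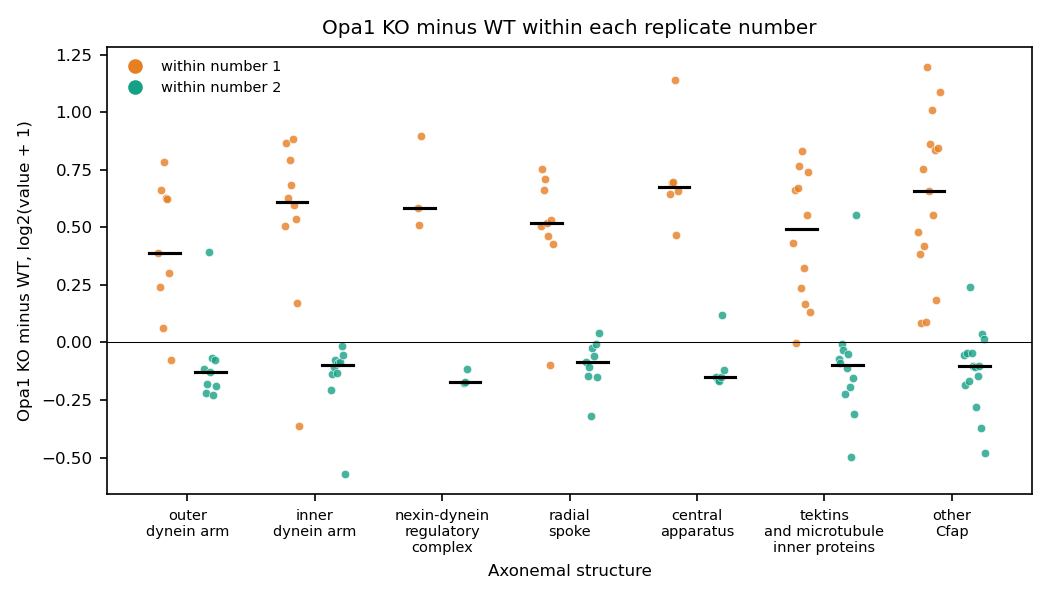
Opa1 KO minus WT in log2(value + 1) within replicate number 1 (orange) and within replicate number 2 (green) for each axonemal gene, by structure, with black bars at the medians. The number 1 medians lie between 0.39 and 0.67 and the number 2 medians are all below 0.

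The promoters of these genes were searched for letters known from cilium gene regulation. RFX factors bind the X-box and Foxj1 is a forkhead factor, and both kinds are known regulators of motile cilium genes. RefSeq promoter windows on build GRCm38.p6, from 250 bases before to 50 bases after a start site, were found for 53 of the 64 genes. A gene was counted once, if any of its windows held the letters. The hexamer GTTGCC, which is 1 arm of the X-box and also lies within the full palindrome, was searched on both strands. It was present in 20 of 53 genes with a window, or 37.7%. Dnah7a, Dnah7b and Dnah7c, near copies of one another, are counted separately among the 20, and their promoters were not compared with each other. The hexamer was present in 15.2% of the 12247 genes tested that had a window and in 14.1% of all 27025 genes with a window. The full X-box, with both arms, was searched in a strict form only, with few free letters in the arms and a fixed spacing between them. That form was present only at Cfap298, or 1.89% against 0.653% of genes tested. Looser forms with other arm letters were not searched, so the other promoters cannot be said to lack a full X-box. Forkhead letters TGTTTAC or TGTTTGT were present in 6 of 53 genes (11.3%), against 8.51% of genes tested and 11.2% of all genes with a window. The hexamer was present in 16 of 42 axonemal genes (38.1%) with a replicate-number difference of at least 1 and in 4 of 11 (36.4%) of those under 1.

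Stretches of 100 bases upstream of the annotated starts are printed for 5 genes that hold the hexamer. Dnah10, Cfap161, Drc1 and Cfap44 had a replicate-number difference over 1 and Cfap20 one under 1, so the letters occur on both sides of that line. Capitals mark GTTGCC or its reverse complement GGCAAC, each sequence runs 5′ to 3′ on the strand of the gene, and a match is a description and not a bound site. The Dnah10 stretch overlaps an exon of another gene, 4930404A12Rik, and the other stretches overlap no annotated exon.
Dnah10, chr5:124724985-124725084, plus strand: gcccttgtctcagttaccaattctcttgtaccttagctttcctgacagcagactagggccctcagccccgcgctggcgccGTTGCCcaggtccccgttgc
Drc1, chr5:30281288-30281387, plus strand: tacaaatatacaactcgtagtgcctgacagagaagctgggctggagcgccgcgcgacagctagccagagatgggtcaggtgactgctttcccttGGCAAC
Cfap44, chr16:44394696-44394795, plus strand: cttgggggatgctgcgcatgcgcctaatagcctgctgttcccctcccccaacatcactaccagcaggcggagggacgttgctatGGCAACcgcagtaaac
Cfap161, chr7:83794881-83794980, minus strand: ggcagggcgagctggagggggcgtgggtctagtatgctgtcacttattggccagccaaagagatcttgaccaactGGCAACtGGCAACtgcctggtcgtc
Cfap20, chr8:95434870-95434969, minus strand: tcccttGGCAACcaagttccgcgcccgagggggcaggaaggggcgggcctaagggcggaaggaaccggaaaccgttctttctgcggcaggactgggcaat

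Among the 9 outer dynein arm genes, 7 had both number 2 libraries above both number 1 libraries, and the class median of the replicate-number difference was 1.90. Dnah5, a heavy chain of the arm, had normalised read counts of 348 and 2306 in WT replicates 1 and 2 and of 552 and 2034 in Opa1 KO replicates 1 and 2. The WT mean was 1327 ± 1385 and the KO mean 1293 ± 1048 (SD, n = 2). The spread within each genotype was thus of the size of the mean, and the groups overlapped fully. Dnah9, another heavy chain, had 299 and 2424 in WT and 517 and 2221 in Opa1 KO, a genotype difference of 0.33 (SE 1.34) and a replicate-number difference of 2.56. The intermediate chains Dnaic1 and Dnaic2, which hold the arm together at its base, had replicate-number differences of 1.97 and 1.90. The light chains stood apart from them. Dnal4 had 1267 and 1670 in WT and 1201 and 1465 in Opa1 KO, with a replicate-number difference of 0.34 and a genotype difference of -0.13 (SE 0.20). For Dnal1 the replicate-number difference was 0.71.

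The outer arm heavy chains of sperm, Dnah8 and Dnah17, were near the level needed for testing and did not take part. Dnah8 had 14.5 and 7.78 in WT and 15.2 and 10.5 in Opa1 KO, the only axonemal gene with both number 2 libraries below both number 1 libraries. Dnah17 had 33.9 and 36.9 in WT and 40.3 and 31.6 in Opa1 KO, with no order by number.

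All 10 inner dynein arm genes had both number 2 libraries above both number 1 libraries, with a class median of 2.14. Dnah6, a single-headed inner arm heavy chain, had 526 and 3871 in WT and 797 and 3647 in Opa1 KO. Dnah10, one of the heavy chains of the double-headed inner arm, had 241 and 2091 in WT and 441 and 1898 in Opa1 KO, the largest replicate-number difference of the 64 genes (2.61). In both genes WT replicate 1 was lowest, and WT replicate 2 was above Opa1 KO replicate 2. Dnah12, another single-headed heavy chain, had 468 and 3100 in WT and 723 and 2875 in Opa1 KO. Dnah7c was the exception in its genotype difference, the lowest of the 64 genes at -0.47 (SE 1.20), with 71.7 and 386 in WT and 55.5 and 259 in Opa1 KO. Dnah7c shared 46.8% of its 50-base words with another gene, and its near copies Dnah7a and Dnah7b shared 38.6% and 30.0% with other genes, so the counts of all 3 are uncertain. Dnah7a and Dnah7b had genotype differences of 0.26 and 0.06.

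The nexin-dynein regulatory complex was represented by Drc1, Drc3 and Drc7. Drc3 had 663 and 4299 in WT and 947 and 3812 in Opa1 KO. Drc7 had 364 and 2760 in WT and 679 and 2550 in Opa1 KO. Drc1, a scaffold subunit on which the complex assembles, had 476 and 2199 in WT and 715 and 1948 in Opa1 KO. The 3 subunits had the same order of libraries, with WT replicate 1 lowest and WT replicate 2 highest, and replicate-number differences of 2.35, 2.41 and 1.82.

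Radial spoke genes held the 3 highest levels per length. Normalised read count divided by exon length in kilobases and averaged over the 4 libraries had a median of 156 over the 64 genes. On this scale the spoke head genes Rsph1, Rsph9 and Rsph4a stood at 1920, 845 and 829, the first 3 in order, followed by Tekt1 at 810. Rsph4a had 813 and 5321 in WT and 1175 and 4795 in Opa1 KO, or 3067 ± 3188 and 2985 ± 2560 (SD, n = 2). Rsph1 had 677 and 4558 in WT and 1072 and 4229 in Opa1 KO. Rsph9 differed less by number, with 739 and 1815 in WT and 994 and 1870 in Opa1 KO, and a replicate-number difference of 1.10 against 2.37 for Rsph4a and 2.36 for Rsph1. Cfap206, which lies at the base of the spokes, had 291 and 2115 in WT and 414 and 1992 in Opa1 KO. All 9 spoke genes had both number 2 libraries above both number 1 libraries. The stalk genes Rsph3a and Rsph3b had smaller differences of 0.79 and 0.85, but shared 58.1% and 69.2% of their 50-base words with another gene.

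The 6 central apparatus genes all had higher values in number 2. Cfap54, a large protein of the central pair projections, had 776 and 4751 in WT and 1259 and 4231 in Opa1 KO. Cfap65 had 427 and 3916 in WT and 942 and 3527 in Opa1 KO, and with it one of the 3 highest genotype differences of the 64 genes, 0.49 (SE 1.35). That difference came from the first pair, where it was 1.14, while in the second pair it was -0.15. Cfap69 had 764 and 2350 in WT and 1056 and 2556 in Opa1 KO, and was higher in Opa1 KO in both pairs (0.47 and 0.12). Its genotype difference of 0.29 had an SE of 0.75.

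Tektins form filaments in the wall of the doublet, and the microtubule inner proteins bind along its inside. Of the 12 genes of this class, 11 had both number 2 libraries above both number 1 libraries. Cfap161 had 441 and 2774 in WT and 698 and 2608 in Opa1 KO, and Cfap52 had 380 and 2701 in WT and 648 and 2316 in Opa1 KO. Cfap20, a protein of the junction between the tubules of a doublet, had 2796 and 3610 in WT and 2793 and 3593 in Opa1 KO. Its replicate-number difference was 0.37 and its genotype difference -0.00 (SE 0.21), and its promoter also holds the hexamer printed above. Tekt2 had 65.9 and 152 in WT and 74.0 and 107 in Opa1 KO, one of the 3 lowest genotype differences (-0.17, SE 0.49), and 20.8% of its exon length is overlapped by a gene on the other strand. Tekt5, a tektin of sperm flagella, had 44.5 and 46.7 in WT and 49.0 and 68.9 in Opa1 KO. Both KO values were above both WT values, by 0.34 (SE 0.31), and Tekt5 was not called.

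The other 15 Cfap genes had a median replicate-number difference of 2.24, and in all 15 both number 2 libraries were above both number 1 libraries. Cfap43 and Cfap44, which tether an inner dynein arm to the doublet, were among the 3 highest of the class by normalised read count, which is not corrected for length. Cfap43 had 319 and 2686 in WT and 731 and 2501 in Opa1 KO, the highest genotype difference of the 64 genes at 0.55 (SE 1.29). Cfap44 had 611 and 2820 in WT and 964 and 2619 in Opa1 KO. Cfap58 had 36.8 and 311 in WT and 75.1 and 281 in Opa1 KO, a genotype difference of 0.43 (SE 1.32). In these genes the KO values lay between the WT values. Cfap36 and Cfap97 differed least by number in this class, at 0.59 and 0.12. Cfap36 had 1050 and 1657 in WT and 1117 and 1605 in Opa1 KO, and Cfap97 had 665 and 764 in WT and 757 and 783 in Opa1 KO. Cfap97 had the smallest SE of the genotype difference (0.14) of the 64 genes, for a difference of 0.11.

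Altogether 12 axonemal genes had a replicate-number difference under 1, namely Cfap20, Cfap300, Cfap36, Cfap97, Dnah17, Dnah8, Dnal1, Dnal4, Rsph3a, Rsph3b, Tekt2 and Tekt5. The 3 genes under the level needed for testing were Cfap97d1 (0.97 and 5.83 in WT, 6.53 and 2.87 in Opa1 KO), Dnah2os, a transcript antisense to Dnah2 (0 and 5.83 in WT, 0 and 1.91 in Opa1 KO), and Rsph6a, the testis relative of Rsph4a (0 and 0 in WT, 2.18 and 0 in Opa1 KO). No order of libraries could be read at these levels. The genes lay on 17 chromosomes, with at most 9 on 1 chromosome. In all, 9 genes shared at least 10% of their 50-base words with another gene, and Cfap298 had 53.6% of its exon length overlapped on the other strand. As the strand setting of the counting is not given in the sources used here, reads of overlapping partners could not be told apart.

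Markers of ependymal cells moved with the axonemal genes. Foxj1, the forkhead factor that turns on motile cilium genes, had 772 and 5009 in WT and 1191 and 4210 in Opa1 KO. All 15 of 15 ependymal markers on the list were tested, none was at 0, and all 15 had both number 2 libraries above both number 1 libraries, with a median difference of 2.22. Their summed level was 10536 and 64625 in WT and 16399 and 59285 in Opa1 KO, so each genotype held a low and a high library. The sum of the axonemal genes was 2.23 and 1.61 times this marker sum in WT and 2.01 and 1.62 times in Opa1 KO. Foxj1 and Ak7 on this marker list also stand on cilium lists. The other markers, among them Enkur, Ccdc153, Fam183b, Odf3b and Sntn, were not screened for cilium proteins under other names. The markers are therefore not a measure independent of cilium genes, and neither are the ratios to their sum. The part of ependymal cell numbers in the axonemal values was not tested.

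Other cell types also differed by number. Microglial markers ran the other way, with a median of -2.49 (8 of 8 with number 2 below number 1) and sums of 1913 and 226 in WT and 1928 and 490 in Opa1 KO. Endothelial markers had a median of 1.0 (8 of 8 with number 2 above number 1), with sums of 1560 and 2564 in WT and 1959 and 5286 in Opa1 KO. Of 10 choroid plexus markers 7 were tested, with a median of 2.50. The sums over all 10, tested or not, were 472 and 2273 in WT and 791 and 8959 in Opa1 KO. Untested Ttr alone gave 6170 of the 8959 in Opa1 KO replicate 2, so that sum does not describe the 7 tested markers. None of the 10 was at 0 in every library. Ttr, the transthyretin made by the choroid plexus, had 8.72 and 1.94 in WT and 3.26 and 6170 in Opa1 KO, and Kl had 2.91 and 0 in WT and 2.18 and 327 in Opa1 KO. Both were under the level needed for testing and were high in Opa1 KO replicate 2 only. Folr1, with 94.9 and 712 in WT and 147 and 635 in Opa1 KO, and Clic6, with 79.4 and 907 in WT and 233 and 896 in Opa1 KO, were high in both number 2 libraries, as the axonemal genes were, and 5 of the 7 tested markers had number 2 above number 1. Replicate-number medians of the other cell type lists were -0.61 for oligodendrocytes, -0.22 for neuroblasts, -0.18 for pericytes and 0.05 for quiescent stem cells and astrocytes. Opa1 KO minus WT had a median of 1.37 for pericyte markers (8 of 8 above 0), 0.99 for oligodendrocyte markers (9 of 9), 0.76 for choroid plexus markers (7 of 7), 0.57 for endothelial markers (8 of 8) and 0.54 for microglial markers (8 of 8). It was 0.46 for quiescent stem cell and astrocyte markers (10 of 10 above 0), 0.21 for ependymal markers (13 of 15) and -0.40 for neuroblast markers (10 of 10 below 0), beside 0.24 for the axonemal genes. The part of these cell types in the axonemal values was not tested.

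**Figure D4:**
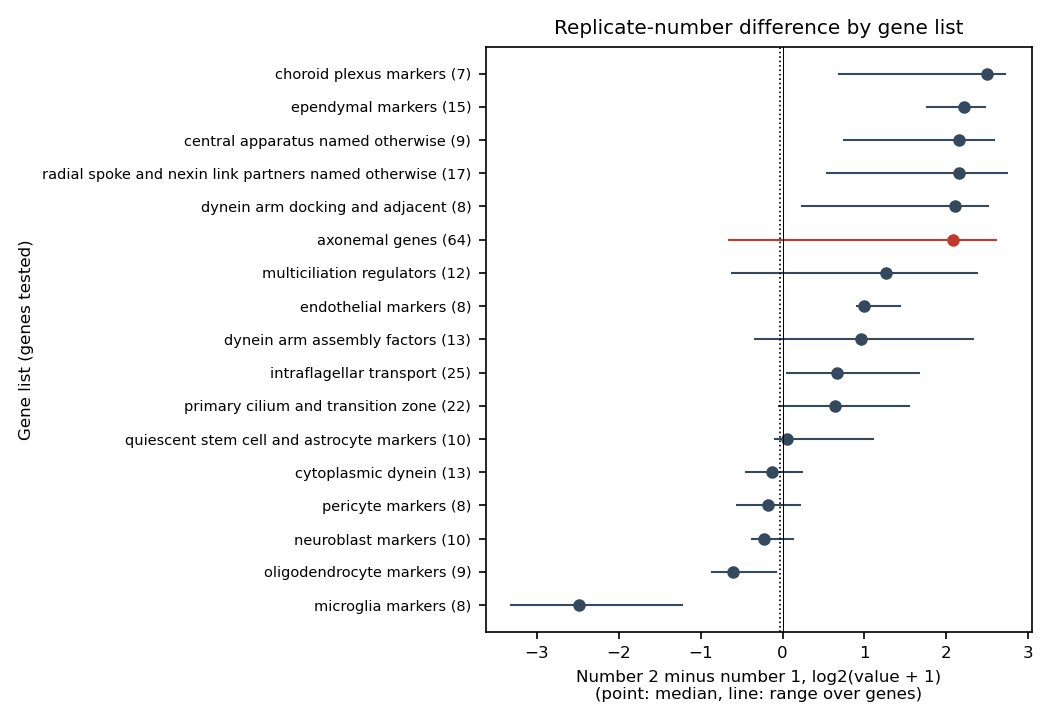
Number 2 minus number 1 in log2(value + 1) for the 64 axonemal genes (red) and 16 other gene lists (dark), with the number of genes tested in brackets, a point at the median, a line over the range of the genes and a dotted line at the median of all genes (-0.03). Axonemal, ependymal, choroid plexus and the other motile cilium structure lists have medians above 2, cytoplasmic dynein lies near 0 and microglial markers near -2.49.

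Cilium genes with other names were also higher in number 2 in most lists, with ranges that overlapped between lists, and differences between lists were not tested. Radial spoke and nexin link partners such as Ccdc40 (17 of 17 tested, from 0.54 for Gas8 to 2.74), central apparatus proteins such as Hydin (9 of 10) and dynein arm docking and adjacent proteins such as Armc4 (8 of 9) had median replicate-number differences of 2.15, 2.16 and 2.10. In these 3 lists all tested genes had both number 2 libraries above both number 1 libraries. Factors that preassemble dynein arms in the cytoplasm had a median of 0.95 (13 of 16 tested, 10 with number 2 above). Within that list Dnaaf1 stood at 2.33 and Dnaaf3 at 2.19, while Ruvbl1 and Ruvbl2, which serve many complexes, stood at 0.16 and 0.35. Regulators of multiciliation had a median of 1.26 (12 of 15 tested, 8 with number 2 above and 3 below). In that list Foxj1 stood at 2.26, Trp73 at 2.37 and Gmnc at 2.10, Rfx2 at 1.47 and Rfx3 at 0.12. Plk4, a kinase of centriole duplication also used by dividing cells, stood at -0.62. Mcidas, Foxn4 and Cdc20b were under the level needed for testing.

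Genes that primary cilia share had smaller medians. Intraflagellar transport genes had a median of 0.67 (25 tested, 22 with number 2 above number 1), and primary cilium and transition zone genes one of 0.63 (22 tested, 21 above), with single genes up to 1.67 and 1.55. Ift88 had 447 and 1192 in WT and 546 and 1089 in Opa1 KO, with number 2 above number 1 by 1.20. Cytoplasmic dynein and dynactin genes had a median of -0.13 (13 tested, 1 above and 7 below). Dync1h1, the heavy chain of cytoplasmic dynein, had 6057 and 5813 in WT and 5779 and 5165 in Opa1 KO. Opa1 KO minus WT had medians between -0.12 and 0.24 in these 8 cilium and dynein lists. No gene of any of the 16 lists was called by limma-trend. That fit called 0 of all 18547 genes and did not call Opa1 itself, so the lack of calls does not set the lists apart. Foxj1 and Ak7 stand on an ependymal and a cilium list each, and Dynll1 on a docking and a cytoplasmic dynein list.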

How the data were processed

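RNA was sequenced from 4 sorted libraries (2 WT, 2 Opa1 KO), whose groups and numbers come from the submitters' titles. The deposited columns were matched to them by the sample descriptions, which number the libraries 2 and 4. Replicate 1 is thus the column numbered 2 and replicate 2 the column numbered 4 in each genotype. The deposited signal per gene is the featureCounts read count divided by 1 DESeq2 size factor per library (1.03, 1.03, 0.919 and 1.04) by the authors. HISAT2, SAMtools and mm10 are also named in the processing notes. Software versions, annotation release and strand setting: not given in the sources used here. Dividing by the smallest step gave whole reads for 100% of values (tolerance 1e-06). The authors' own comparison columns (log2 fold change, standard error, statistic, p-values, weight) and 5 other files were not used. Of 55421 identifiers, 55154 matched a symbol in the GENCODE annotation of GRCm38.

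Genotype was tested with limma-trend (limma 3.58.1, R 4.3.3, robust) on log2(value + 1), which understates changes of low genes. The fit held 18547 genes with at least 10 in at least 2 libraries, two-sided, with Benjamini-Hochberg adjustment over all genes and a threshold of 0.05. edgeR 4.0.16, DESeq2 1.42.0 and limma-voom were run on the recovered reads as alternatives, beside other scalings, pseudocounts, level limits, a term for replicate number and leaving out each library. The fits were also run on simulated counts that held no replicate-number difference. That run therefore does not show how they behave on data with such a difference. Replicate-number differences and lists are descriptions without a test. Named genes were the 3 most abundant of each structure, the 3 highest and 3 lowest by each difference, those nearest the level limit, and Foxj1. Any other gene named was chosen after its values were seen. Structures were assigned from textbook knowledge. The axonemal genes and the 16 lists were chosen with earlier results of these data known. Promoter windows are from RefSeq (GRCm38.p6). Printed stretches end at the RefSeq start or at a GENCODE start of the same gene further upstream. Exon overlaps and shared 50-base words come from GENCODE.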

Additional observations from a re-analysis of the deposited data

How the results depend on the processing

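No axonemal gene was called under any of the alternatives run, by limma-trend, edgeR, DESeq2 or limma-voom. The median genotype difference of the axonemal genes, 0.24, changed sign when WT replicate 1 or Opa1 KO replicate 2 was left out (-1.0 and -0.55), and ranged from -1.0 to 1.47 over the fits that left out 1 library (a lone library is assumed to vary like the other group). Single genes changed sign with it, 56 of 64 and 55 of 64 in those fits, 17 with edgeR and 20 with DESeq2. Scaling by library size, which moved the median of all genes to 0.05, gave 0.30, and TMM scaling gave 0.25, with 61 and 60 of 64 genes above 0. The replicate-number median stayed between 2.00 and 2.18 and the count of genes with number 2 above number 1 between 60 and 62 over the scalings, pseudocounts (0.5 and 5) and level limits (none, or 50) run.

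Deviations of the same-numbered WT and KO libraries from their group means correlated at r = 0.718 over 18547 genes, which with 2 pairs is a hint from the data and not a design. A replicate block gave 182 genes (0.981%) against 0 without it, and 0 axonemal genes either way. With the block the SE of the genotype difference had a median of 0.20 over the axonemal genes (0.08 to 0.46) and 0.16 over all genes. At an unadjusted p under 0.05 the blocked limma-trend fit gave 2 of 64 axonemal genes and 3177 of all 18547 genes. The lowest adjusted p of an axonemal gene in the blocked limma-trend fit was 0.197, for Cfap300, and Cfap69 followed with an adjusted p of 0.233 by limma-trend, both higher in Opa1 KO in both pairs.

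With 2 libraries a genotype, the spread of these genes rests on few samples. The effect of depth was not tested, and the values of Dnah8 and of the 3 genes under the level limit rest on few reads.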
